A study of Mus musculus with 2 samples.

Results

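The 36 genes described here are those of glycolysis and of the response to low oxygen, chosen by symbol from the 32285 genes that both libraries list. All 36 were listed, and each symbol had a single gene identifier except Aldoa, whose other identifier held 1 UMI and was left aside. No measured value entered the rule for choosing the genes, but they were chosen with earlier results of these data known. They take in the glucose transporter Slc2a1 and the enzymes from hexokinase to pyruvate kinase, the lactate dehydrogenases and lactate transporters, regulators of glycolytic flux, the oxygen sensors and the alpha subunits of hypoxia-inducible factor (HIF), and other genes that HIF is known to activate.

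Glycolysis converts glucose to pyruvate in the cytosol, and lactate dehydrogenase turns pyruvate into lactate, which monocarboxylate transporters carry across the membrane. When oxygen is low, prolyl hydroxylases no longer mark the HIF alpha subunits for degradation, and HIF raises the transcription of most glycolytic genes. In the normal eye the cornea and the trabecular meshwork have no vessels of their own and are fed largely by the aqueous humor, and both are known for a high use of glucose with release of lactate. The paper reports new vessels in the cornea of the mutant mice described below. The part of these vessels in the values given here was not tested.

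Anterior eye segments with the iris removed were dissociated with collagenase and trypsin in the presence of the kinase inhibitor Y-27632 and profiled by droplet-based single-cell RNA sequencing, in which each captured 3′ end carries a unique molecular identifier (UMI). In NC-Foxc2-/- mice (Foxc2 flox/flox;Wnt1Cre+) Wnt1-Cre deletes the transcription factor Foxc2 in the neural crest and the cells that descend from it, and the controls were Foxc2 flox/flox mice without the Cre. The NC-Foxc2-/- mice were chosen in the paper for moderate ocular phenotypes, described there as opaque eyes, a selection made in that group only. Strain was mixed in both groups, and the age was 4 weeks by the labels and 3 to 4 weeks by the protocol. Each group was 1 library of tissue pooled from 4 to 6 mice, so a comparison of the groups is a comparison of these 2 libraries, with no replicate and no test. Vascular endothelium, blood cells and surface epithelium do not descend from the neural crest.

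The libraries held 10872 NC-Foxc2-/- cells and 10773 control cells with at most 8% mitochondrial UMIs, at a median of 6517 UMIs per cell in NC-Foxc2-/- and 7663 UMIs in control. 52 barcodes occurred in both libraries. The trabecular meshwork classes TM-1, TM-2 and TM-3, the uveal meshwork, fibroblasts and endothelial cells carry the names that the study gave these cells, and classes ending in "-like" were rebuilt and named from marker genes. Levels are CPM, the UMIs of a gene per 1000000 UMIs of a class and library, and ratios are NC-Foxc2-/- over control. Brackets hold 95% intervals, which cover counting error only. The class sums ran from 968292 UMIs in control TM-2 cells to 39406306 UMIs in NC-Foxc2-/- keratocyte-like cells. Foxc2 itself had 5.10 CPM in NC-Foxc2-/- TM-3 cells against 27 CPM in control TM-3 cells, and 13 CPM in NC-Foxc2-/- uveal meshwork against 68.6 CPM in control uveal meshwork; the sources used here do not say whether the counted 3′ end lies inside the deleted part.

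Most glycolytic genes had fewer transcripts in the NC-Foxc2-/- library, and TM-3, taken as a whole class, stood furthest from its control. 24 of the 36 genes had at least 50 UMIs over both libraries in each of the 9 classes, and for 22 of these 24 the lowest of the 9 ratios was in TM-3. Gpi1, Pfkl, Aldoa, Tpi1, Gapdh, Pgk1, Pgam1, Eno1 and Pkm had ratios whose intervals lay below 1 in all 9 classes, but with each cell thinned to 1000 UMIs the ratio was 1.00 for Pgam1 in keratocyte-like and 1.04 for Gpi1 in limbal epithelial-like cells. Hk2 ran the other way, with more CPM in NC-Foxc2-/- in 7 of 9 classes beyond its counting interval. Neither the count of lowest ratios in TM-3 nor that of intervals below 1 is given here over all genes. These counts alone therefore do not set the 36 genes apart from others. The map of log2 ratios by gene and class shows the column of low ratios at TM-3 and the row of high ratios at Hk2.

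**Figure D1:**
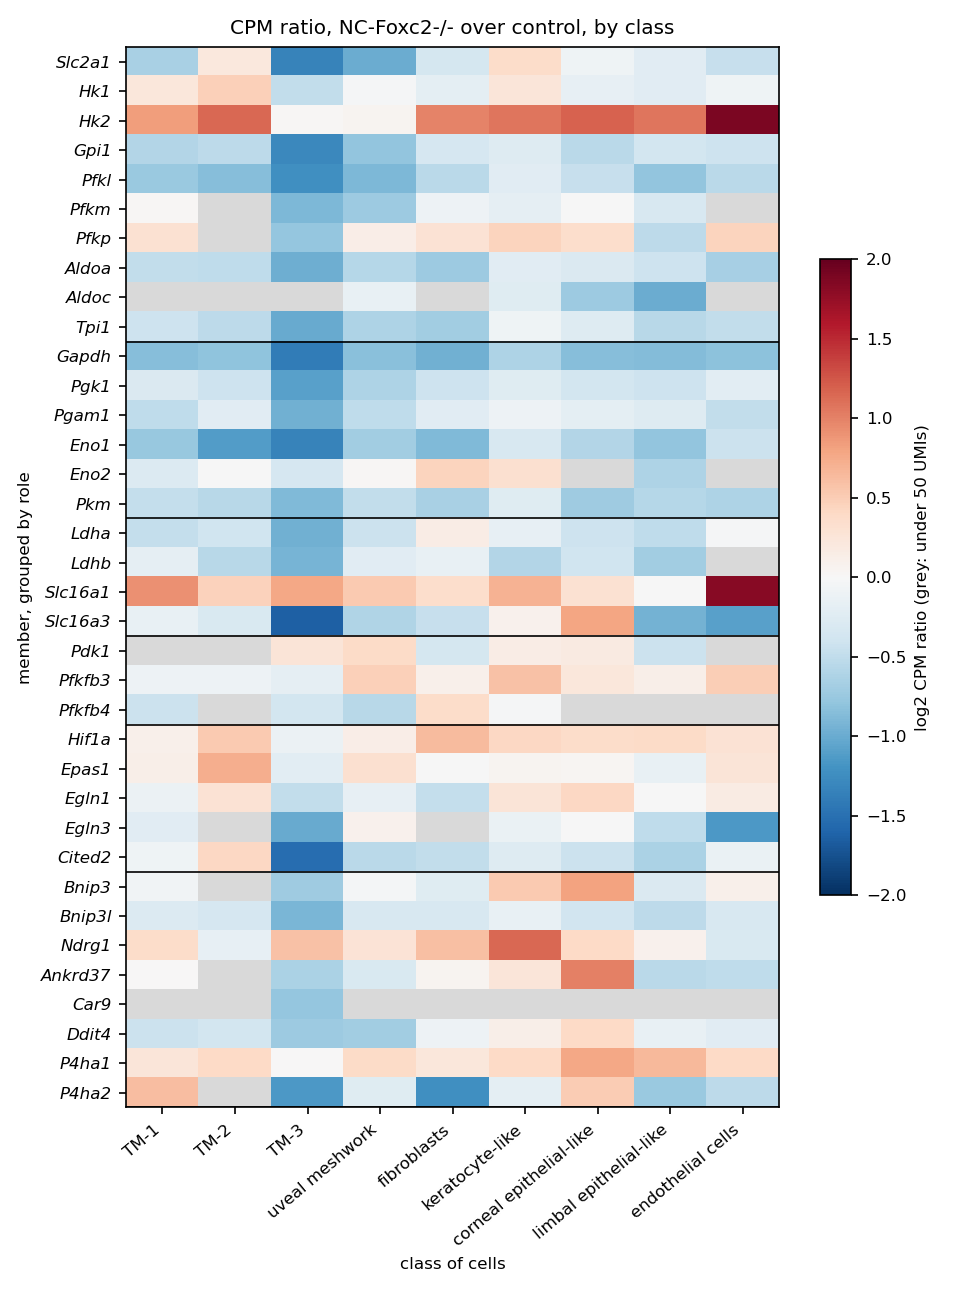
Log2 CPM ratio of NC-Foxc2-/- over control for the 36 genes (rows, grouped by role with black lines) in 9 classes of cells (columns). Red is higher in NC-Foxc2-/-, blue is lower, and grey marks genes with fewer than 50 UMIs over both libraries; the TM-3 column holds the most dark blue and the Hk2 row the most red.

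A gene was counted as higher past a ratio of 2 and as lower under 0.5, given 50 or more UMIs summed over the libraries. By this rule 11 of 35 genes were lower in TM-3, where 2.29% of all genes passing that minimum were lower, and 0 were higher, where 3.64% of all genes were. The median log2 ratio of the 35 was -0.89, against 0.06 over all genes measured in TM-3. In TM-1, 0 of 33 genes were lower by the rule (1.7% of all genes) and 0 were higher (2.24%). In TM-2, 1 of 26 was lower (1.88% of all genes) and 1 was higher (2.77%). In the uveal meshwork 0 of 35 were lower (1.49%) and 0 were higher (2.06%), with a median of -0.31 against 0.06 over all genes. In fibroblasts 1 of 33 was lower (6.09% of all genes) and 0 were higher (4.84%). In keratocyte-like cells 0 of 35 were lower (1.35%) and 2 were higher (2.33%), and the median of -0.03 stood beside 0.00 over all genes. In corneal epithelial-like cells 0 of 33 were lower (1.82%) and 2 were higher (2.28%). In limbal epithelial-like cells 0 of 34 were lower (6.77%) and 1 was higher (1.18%), with a median of -0.43 against -0.14 over all genes. In endothelial cells 2 of 29 were lower (4.03%) and 2 were higher (3.09%). Outside TM-3 the counts were thus 0 to 2 genes in each direction.

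The summed share of 17 glycolytic enzymes (hexokinase to lactate dehydrogenase) puts one value on each class. It was 0.505% of UMIs in NC-Foxc2-/- TM-3 cells and 0.962% in control TM-3 cells, a ratio of 0.53 (0.52 to 0.53). In the uveal meshwork it was 0.541% in NC-Foxc2-/- and 0.787% in control cells, a ratio of 0.69 (0.68 to 0.70). In the other 7 classes the ratio lay between 0.73 and 0.96, the last in fibroblasts. Without Hk2 the ratio was 0.48 in TM-3, 0.83 in keratocyte-like cells and between 0.67 and 0.73 in the other 7 classes. In macrophage-like cells it was 0.72 without Hk2 (0.71 to 0.74).

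Slc2a1, the main glucose transporter of barrier and avascular tissues, had 511 CPM in NC-Foxc2-/- and 1296 CPM in control cells (ratio 0.39, 0.38 to 0.41) in TM-3. In the uveal meshwork it had 395 CPM in NC-Foxc2-/- and 785 CPM in control cells (ratio 0.50, 0.47 to 0.53), just short of the rule. TM-1 had 90.4 CPM in NC-Foxc2-/- and 142 CPM in control cells (ratio 0.64, 0.55 to 0.74). In keratocyte-like cells the order was the opposite, with 389 CPM in NC-Foxc2-/- and 301 CPM in control cells (ratio 1.29, 1.26 to 1.33). Corneal epithelial-like cells had 455 CPM in NC-Foxc2-/- and 482 CPM in control cells (ratio 0.94, 0.90 to 0.98). Among the 9 NC-Foxc2-/- classes TM-3 still had the highest Slc2a1, 1.12 times the corneal epithelial-like level (1.07 to 1.18).

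The hexokinases, which trap glucose in the cell as its phosphate, were the exception among the upper steps. Hk2 had 816 CPM in NC-Foxc2-/- and 388 CPM in control cells (ratio 2.10, 2.06 to 2.15) in keratocyte-like cells. The Hk2 ratio was 2.26 in corneal epithelial-like cells (2.15 to 2.36), 2.11 in limbal epithelial-like cells (1.98 to 2.24) and 2.22 in TM-2 (1.96 to 2.51). With cells thinned to 1000 UMIs the Hk2 ratio in limbal epithelial-like cells was 1.80, short of the rule. In fibroblasts, where its level was highest of the 9 NC-Foxc2-/- classes, Hk2 had 1140.1 CPM in NC-Foxc2-/- and 573 CPM in control cells (ratio 1.99, 1.89 to 2.09). In endothelial cells it had 55.1 CPM in NC-Foxc2-/- and 14.9 CPM in control cells (ratio 3.71, 2.47 to 5.69), on 95 and 33 UMIs. Over all TM-3 cells it had 842 CPM in NC-Foxc2-/- and 825 CPM in control cells. This ratio of 1.02 changed its side of 1 when ratios were scaled by the median gene. When all cells were clustered anew, the Hk2 ratio was 1.25 (1.199 to 1.297) in TM-3 cells of cluster 15. It was 1.10 (0.96 to 1.26) in those of cluster 6. In TM-3 cells with no corneal endothelial marker UMI it was 0.84 (0.73 to 0.96). Hk1 had 138 CPM in NC-Foxc2-/- and 194 CPM in control cells (ratio 0.71, 0.65 to 0.77) in TM-3, against a ratio of 1.18 (1.13 to 1.23) in keratocyte-like cells.

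Of the middle steps, Gpi1, glucose phosphate isomerase, had 139.8 CPM in NC-Foxc2-/- and 344 CPM in control cells (ratio 0.41, 0.38 to 0.44) in TM-3. Pfkl, a phosphofructokinase subunit of the committed step, had 101 CPM in NC-Foxc2-/- and 236 CPM in control cells (ratio 0.43, 0.39 to 0.47) in TM-3. Its partner Pfkp had 107 CPM in NC-Foxc2-/- and 183 CPM in control cells (ratio 0.58, 0.53 to 0.64) in TM-3, while in keratocyte-like cells the ratio was 1.37 (1.21 to 1.55). Pfkm was low in all classes, at most 18.2 CPM in the control uveal meshwork among the 9 classes compared. The aldolase Aldoa had 458 CPM in NC-Foxc2-/- and 904 CPM in control cells (ratio 0.51, 0.49 to 0.53) in TM-3, just short of the rule. Aldoc passed the minimum of UMIs in 4 classes and was lowest relative to control in limbal epithelial-like cells, with a ratio of 0.51 (0.32 to 0.76). Tpi1, triosephosphate isomerase, had 324 CPM in NC-Foxc2-/- and 647 CPM in control cells (ratio 0.50, 0.48 to 0.53) in TM-3. It stood at the threshold, and was not past it with doublets left out (0.50), with rebuilt clusters (0.51), without mitochondrial, haemoglobin and ribosomal genes (0.51) or, among the TM-3 cells clustered anew, in cluster 15 (0.59) or cluster 6 (0.80). Its ratio in keratocyte-like cells was 0.95, the nearest to 1 of the 9 classes.

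Gapdh had the widest difference of the lower steps. It had 712 CPM in NC-Foxc2-/- and 1873 CPM in control cells (ratio 0.38, 0.37 to 0.39) in TM-3, and in the other 8 classes the ratio lay between 0.51 in fibroblasts and 0.65 in keratocyte-like cells. Corneal epithelial-like cells, which are not of the neural crest, had 954 CPM in NC-Foxc2-/- and 1723 CPM in control cells (ratio 0.55, 0.54 to 0.57). Gapdh was thus lower in NC-Foxc2-/- in meshwork and epithelial classes alike. Eno1, the main enolase, had 126 CPM in NC-Foxc2-/- and 319 CPM in control cells (ratio 0.39, 0.37 to 0.43) in TM-3, and was also lower by the rule in TM-2, on 41 UMIs in NC-Foxc2-/- and 74 UMIs in control cells, with a ratio of 0.46 (0.31 to 0.68). With the mean of per-cell CPM the TM-2 ratio of Eno1 was 0.52, short of the rule. Adding the near-identical copy Eno1b left the TM-3 ratio at 0.41. Pgk1, which makes the first ATP of the pathway, had 287 CPM in NC-Foxc2-/- and 607 CPM in control cells (ratio 0.47, 0.45 to 0.50) in TM-3. Pgam1 had a TM-3 ratio of 0.51 (0.49 to 0.53) and Pkm, pyruvate kinase, one of 0.54 (0.51 to 0.57). Eno2, the enolase best known from neurons, had 43.8 CPM in NC-Foxc2-/- and 55.4 CPM in control cells (ratio 0.79, 0.68 to 0.92) in TM-3 and a ratio of 1.25 in keratocyte-like cells (1.15 to 1.35).

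At the lactate end the transporters parted. Slc16a3, the lactate exporter known as MCT4, had 69.9 CPM in NC-Foxc2-/- and 217 CPM in control cells (ratio 0.32, 0.29 to 0.36) in TM-3, the lowest ratio of the 35 genes measured there. Slc16a1, the more general carrier MCT1, had 57.8 CPM in NC-Foxc2-/- and 33.9 CPM in control cells (ratio 1.71, 1.45 to 2.02) in the same cells. Slc16a3 made up 54.7% of the UMIs of the pair in NC-Foxc2-/- TM-3 cells and 86.5% in control TM-3 cells. In endothelial cells Slc16a1 had 49.3 CPM in NC-Foxc2-/- and 14.0 CPM in control cells (ratio 3.53, 2.31 to 5.51) and Slc16a3 had 35.4 CPM in NC-Foxc2-/- and 74.8 CPM in control cells (ratio 0.47, 0.35 to 0.64). With rebuilt clusters the Slc16a3 ratio in endothelial cells was 0.55, short of the rule. The share of Slc16a3 in the pair was 41.8% in NC-Foxc2-/- and 84.3% in control endothelial cells. In keratocyte-like cells Slc16a3 had 81.9 CPM in NC-Foxc2-/- and 77.6 CPM in control cells (ratio 1.06, 1.00 to 1.12).

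Ldha, the dehydrogenase form that favors lactate, had 718 CPM in NC-Foxc2-/- and 1396 CPM in control cells (ratio 0.51, 0.50 to 0.53) in TM-3, and Ldhb had 40.1 CPM in NC-Foxc2-/- and 76.7 CPM in control cells (ratio 0.52, 0.45 to 0.61). Ldha was 94.7% of the pair in NC-Foxc2-/- TM-3 cells and 94.8% in control TM-3 cells. In endothelial cells the Ldha ratio was 0.99 (0.91 to 1.07), and in fibroblasts 1.10 (1.02 to 1.19). The plot of levels by class shows Slc2a1 and Cited2 highest in control TM-3 among the 9 classes, with NC-Foxc2-/- TM-3 well below it.

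**Figure D2:**
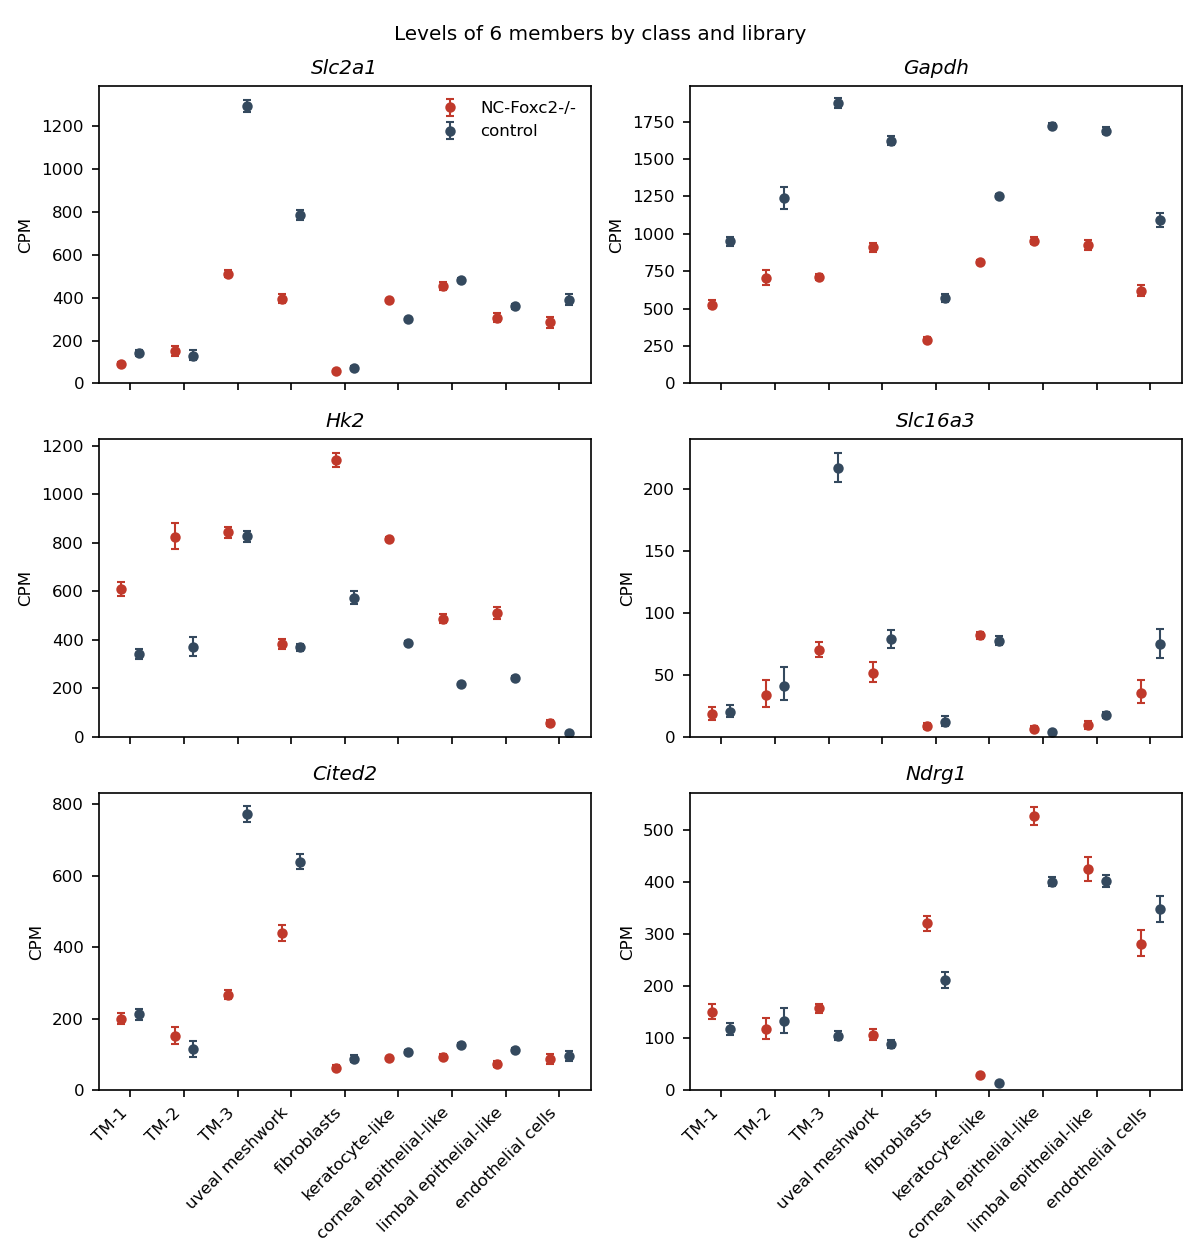
CPM (vertical axes, linear from 0) of 6 genes in 9 classes, with NC-Foxc2-/- in red to the left of control in dark blue, and bars for exact Poisson 95% intervals of counting error. Slc2a1 has 511 CPM in NC-Foxc2-/- and 1296 CPM in control TM-3 cells, and Gapdh is lower in NC-Foxc2-/- in all 9 classes. Hk2 is level over all TM-3 cells and in the uveal meshwork.

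The regulators of flux did not follow the enzymes. Pfkfb3, which makes the activator of phosphofructokinase, had 233 CPM in NC-Foxc2-/- and 263 CPM in control cells (ratio 0.89, 0.83 to 0.95) in TM-3, but a ratio of 1.18 (1.10 to 1.26) in the TM-3 cells that fell in cluster 15 when all cells were clustered anew, and 0.72 (0.50 to 1.05) in those of cluster 6. Keratocyte-like cells had 219 CPM in NC-Foxc2-/- and 147 CPM in control cells (ratio 1.5, 1.44 to 1.55). Pdk1, the kinase that keeps pyruvate out of mitochondria, had 19.2 CPM in NC-Foxc2-/- and 16.0 CPM in control cells (ratio 1.2, 0.92 to 1.57) in TM-3. Pfkfb4 was at most 17.6 CPM, in control TM-2, and none of its intervals left out 1 in the 5 classes where it passed the minimum of UMIs.

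The genes grouped as oxygen sensing were Hif1a, Epas1, Egln1, Egln3 and Cited2. The message of Hif1a itself had opposite directions over all TM-3 cells and within cluster 15 of them (ratio 1.19, 1.14 to 1.23). Over all TM-3 cells it had 848 CPM in NC-Foxc2-/- and 923 CPM in control cells (ratio 0.92, 0.89 to 0.95), and was higher in NC-Foxc2-/- in 7 of 9 classes by its interval. Keratocyte-like cells had 949 CPM in NC-Foxc2-/- and 709.7 CPM in control cells (ratio 1.34, 1.31 to 1.36). Epas1, which encodes the HIF alpha subunit best known from endothelium, was highest of the 9 classes in endothelial cells, with 710.0 CPM in NC-Foxc2-/- and 591 CPM in control cells (ratio 1.2, 1.11 to 1.30), and lowest in keratocyte-like cells, with 14.1 CPM in NC-Foxc2-/- and 13.6 CPM in control cells (ratio 1.04, 0.91 to 1.19). Within blood endothelial cells Epas1 had 747 CPM in NC-Foxc2-/- and 785 CPM in control (ratio 0.95, 0.87 to 1.04). In Schlemm's canal and lymphatic endothelial cells, 23 of them in NC-Foxc2-/-, its ratio was 1.59 (1.22 to 2.06). Hif1a was 98.5% of the UMIs of the pair in NC-Foxc2-/- and 98.1% in control keratocyte-like cells, but 41.7% in NC-Foxc2-/- and 41.4% in control endothelial cells. HIF activity is set mainly through the stability of the protein, which these counts do not measure.

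Cited2, which competes with HIF for its coactivators and is itself a HIF target, had 268 CPM in NC-Foxc2-/- and 774 CPM in control cells (ratio 0.35, 0.33 to 0.36) in TM-3. The uveal meshwork had 439 CPM in NC-Foxc2-/- and 640.0 CPM in control cells (ratio 0.69, 0.65 to 0.73), and TM-1 200.2 CPM in NC-Foxc2-/- and 212 CPM in control cells (ratio 0.94, 0.85 to 1.05). Of the prolyl hydroxylases, Egln1 had 134 CPM in NC-Foxc2-/- and 189 CPM in control cells (ratio 0.71, 0.65 to 0.77) in TM-3 and a ratio of 1.2 in keratocyte-like cells (1.16 to 1.24). Egln3 had 41.7 CPM in NC-Foxc2-/- and 83.9 CPM in control cells (ratio 0.50, 0.43 to 0.57) in TM-3. Of the 9 classes it was highest in the epithelia, with 268 CPM in NC-Foxc2-/- and 379 CPM in control cells (ratio 0.71, 0.66 to 0.76) in limbal epithelial-like cells, of which 28.0% in NC-Foxc2-/- and 31.1% in control were called doublets. Cited2 and Egln3 were the 2 genes past the rule in TM-3, of the 5 grouped as oxygen sensing, and Egln3 stood at the threshold. It was no longer past it with at most 5% mitochondrial UMIs (0.50), with rebuilt clusters (0.52), without mitochondrial, haemoglobin and ribosomal genes (0.51) or, among the TM-3 cells clustered anew, in cluster 15 (0.58) or cluster 6 (0.66).

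The other HIF targets were mixed. Bnip3 and Bnip3l, receptors for the removal of mitochondria, had ratios of 0.61 (0.55 to 0.68) and 0.53 (0.49 to 0.57) in TM-3. In keratocyte-like cells Bnip3 had 90.3 CPM in NC-Foxc2-/- and 63.0 CPM in control cells (ratio 1.43, 1.35 to 1.52). Ndrg1, a known HIF target, had 29.8 CPM in NC-Foxc2-/- and 13.5 CPM in control cells (ratio 2.21, 1.96 to 2.49) in keratocyte-like cells, its lowest level of the 9 classes. In corneal epithelial-like cells, its highest NC-Foxc2-/- level, it had 526 CPM in NC-Foxc2-/- and 399.7 CPM in control cells (ratio 1.32, 1.26 to 1.37). In TM-3 it had 157 CPM in NC-Foxc2-/- and 104 CPM in control cells (ratio 1.5, 1.37 to 1.66), against the direction of the glycolytic enzymes. Ankrd37 was highest of the 9 classes in endothelial cells, with 114 CPM in NC-Foxc2-/- and 162 CPM in control cells (ratio 0.70, 0.59 to 0.84), and its ratio in corneal epithelial-like cells was 2.02 (1.74 to 2.33), which stands at the threshold. Ddit4, an inhibitor of mTOR signaling, had 56.0 CPM in NC-Foxc2-/- and 92.5 CPM in control cells (ratio 0.60, 0.53 to 0.69) in TM-3 and 176 CPM in NC-Foxc2-/- and 206 CPM in control cells (ratio 0.86, 0.74 to 0.99) in endothelial cells.

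P4ha1 and P4ha2 encode alpha subunits of collagen prolyl hydroxylase. P4ha1 had a ratio of 1.00 in TM-3 (0.94 to 1.07), whose side of 1 changed with the scaling, and was higher in NC-Foxc2-/- by its interval in 8 of 9 classes, up to 1.72 in corneal epithelial-like cells (1.53 to 1.93). In TM-3 cells of cluster 15 the P4ha1 ratio was 1.17 (1.09 to 1.26), and 0.98 (0.80 to 1.21) in those of cluster 6. P4ha2 had 33.2 CPM in NC-Foxc2-/- and 73.7 CPM in control cells (ratio 0.45, 0.38 to 0.53) in TM-3 and 67.5 CPM in NC-Foxc2-/- and 157 CPM in control cells (ratio 0.43, 0.38 to 0.49) in fibroblasts, its highest level of the 9 classes. The fibroblast markers of these cells summed to 6844 CPM in NC-Foxc2-/- and 10605 CPM in control fibroblasts, and their part in the P4ha2 difference was not tested.

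Car9, a membrane carbonic anhydrase, was nearly confined to 1 class. In control corneal endothelial-like cells it had 316 CPM, and a UMI of it was found in 95.9% of those 171 cells (22.2% when each cell was thinned to 1000 UMIs). In no other control class compared did it exceed the 5.75 CPM of TM-3, and a UMI of it was found in 0.238% of control keratocyte-like cells. The NC-Foxc2-/- library held 9 corneal endothelial-like cells, too few for a comparison, and all 9 had a UMI of Car9. The corneal endothelium pumps fluid out of the cornea, with carbonic anhydrases among its known enzymes.

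Across 11 control classes (the 9 compared, and the conjunctival epithelial-like and corneal endothelial-like cells, with macrophage-like, pericyte-like, smooth muscle-like and erythrocyte-like cells left out), 21 of the 36 genes had their highest control level in corneal endothelial-like cells and 7 in TM-3, while 18 had their lowest in fibroblasts. Gapdh had 2744 CPM, Pkm 1474 CPM and Aldoc 86.7 CPM in control corneal endothelial-like cells, which the next class in order did not reach within its interval. Ldha had 1434 CPM there and 1396 CPM in control TM-3, and Ldhb 99.9 CPM there and 96.4 CPM in the control uveal meshwork; the intervals of both ratios held 1. Slc2a1 was highest in TM-3 in both libraries, over the 9 classes compared in NC-Foxc2-/- and these 11 in control. Over the 9 classes of the NC-Foxc2-/- library, which lacks a usable corneal endothelial-like class, 11 genes had their highest level in keratocyte-like cells, 7 in the uveal meshwork and 19 their lowest in fibroblasts. The matching counts over all genes are not given here, so the order of classes is not read as particular to the 36 genes.

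Control TM-3 cells also carried more of the corneal endothelial markers. Slc4a11, Car3, Col8a2, Npy and Cldn10 were all detected in TM-3, and they summed to 765.8 CPM in NC-Foxc2-/- and 1729 CPM in control TM-3 cells, against 25919 CPM in control corneal endothelial-like cells. Cldn10 had 244 CPM in NC-Foxc2-/- and 729.7 CPM in control TM-3 cells, and Slc4a11, the defining transporter of the corneal endothelium, had 12.6 CPM in NC-Foxc2-/- and 27.5 CPM in control. Among TM-3 cells with no UMI of these 5 markers (389 NC-Foxc2-/- and 126 control cells), 9 of 31 genes were lower by the rule. Over all TM-3 cells 11 of 35 were. The median log2 ratio was -0.51 in those cells without a marker UMI, against -0.89 over all TM-3 cells. Slc2a1 had a ratio of 0.33 (0.27 to 0.40) in those cells, Slc16a3 one of 0.24 (0.15 to 0.36) and Gapdh one of 0.40 (0.36 to 0.44). Gpi1, at 0.56, and P4ha2, at 0.70, were no longer past the rule. This subset was chosen after the data were seen. The share of all genes past the rule in it and their median are not given here, so its count is not set against a background.

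TM-3 was also split unequally between the libraries. When all cells were clustered anew, 51.0% of NC-Foxc2-/- and 78.3% of control TM-3 cells fell in cluster 15, and 42.9% of NC-Foxc2-/- and 17.5% of control TM-3 cells in cluster 6. Glycolytic enzymes made up 0.677% of UMIs in NC-Foxc2-/- and 1.08% in control TM-3 cells of cluster 15, and 0.245% in NC-Foxc2-/- and 0.343% in control TM-3 cells of cluster 6. Slc2a1 had 796 CPM in NC-Foxc2-/- and 1528 CPM in control cells of cluster 15, and 65.9 CPM in NC-Foxc2-/- and 93.9 CPM in control cells of cluster 6. Cluster 6 cells, poor in glycolytic transcripts in both libraries, were thus a larger share of TM-3 in NC-Foxc2-/- than in control.

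The differences were smaller within each cluster. In cluster 15, 5 of 35 genes stayed past the rule (Gpi1, Gapdh, Slc16a3, Cited2 and P4ha2), with Gapdh at 0.44 (0.42 to 0.45) and Slc16a3 at 0.42 (0.38 to 0.47). Slc2a1 there had a ratio of 0.52 (0.50 to 0.54), Eno1 one of 0.51 (0.47 to 0.55) and Hif1a one of 1.19 (1.14 to 1.23), where over all TM-3 cells the Hif1a ratio was 0.92. In cluster 6, 1 of 30 genes stayed past the rule, Eno1 at 0.41 (0.30 to 0.56), and Gapdh had 0.52 (0.47 to 0.58). The median log2 ratio of the genes was -0.66 in cluster 15 and -0.22 in cluster 6, against -0.89 over all TM-3 cells. Over the whole classes other than TM-3 it ran from -0.43 in limbal epithelial-like to -0.01 in corneal epithelial-like cells, so cluster 6 lay within that range. The clusters were formed from genes that included 8 of the 36, so the shares and levels within them are a description. Within these clusters the share of all genes past the rule and their median are not given here, so the counts are not set against a background. The plot by subset of TM-3 cells shows all 4 sets of ratios.

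**Figure D3:**
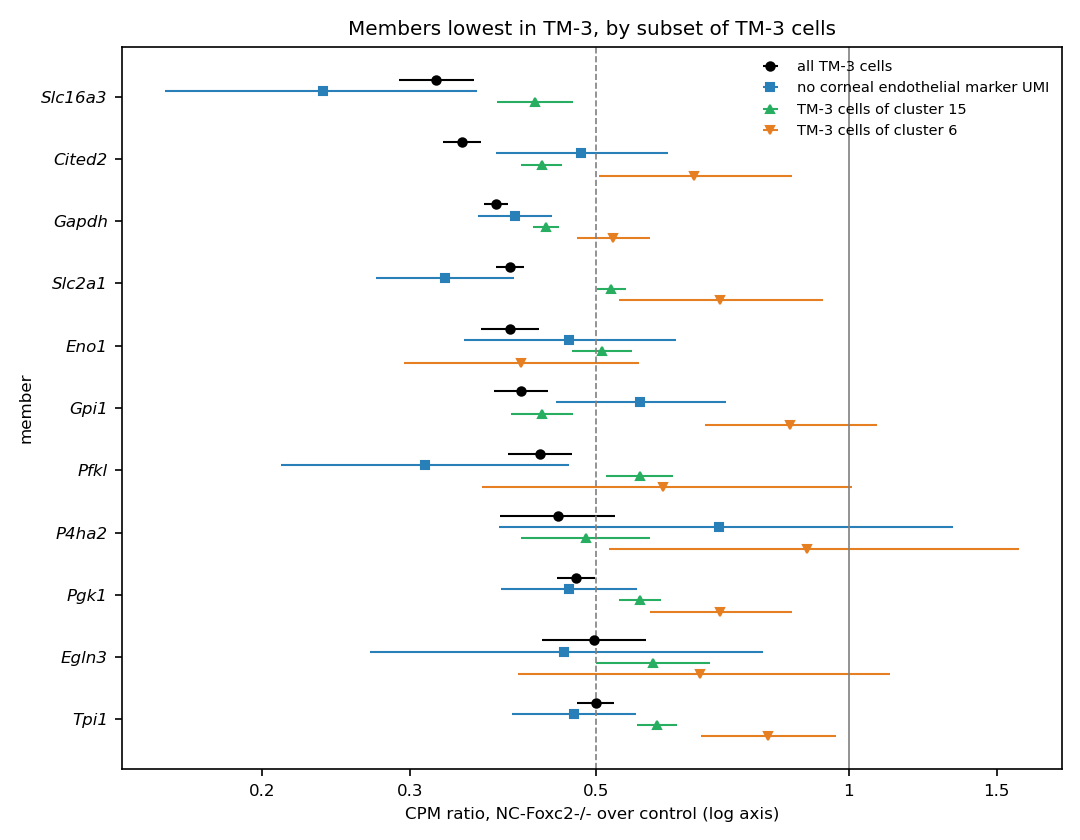
CPM ratio of NC-Foxc2-/- over control (horizontal log axis) for the 11 genes past the rule in TM-3 (rows), over all TM-3 cells (black), TM-3 cells with no corneal endothelial marker UMI (blue), and TM-3 cells of cluster 15 (green) and cluster 6 (orange), with 95% counting intervals; subsets with under 50 UMIs are left out. The dashed line is 0.5 and the full line is 1; each orange point lies to the right of the black one of its gene, closest for Eno1 with 0.41 in cluster 6 and 0.39 over all TM-3 cells.

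Other measures moved with the TM-3 difference as well. Haemoglobin transcripts, a sign of free RNA, were at 2337 CPM in NC-Foxc2-/- and 6893 CPM in control TM-3 cells. The 16 genes known to respond to dissociation summed to 17113 CPM in NC-Foxc2-/- and 18216 CPM in control TM-3 cells. Their ratios lay below 1 for 7 and above 1 for 9, with a median log2 ratio of 0.08 against 0.06 over all genes. The highest ratio was that of the heat shock gene Hspa1b, at 1577 CPM in NC-Foxc2-/- and 357 CPM in control. The lowest was that of Atf3, at 540 CPM in NC-Foxc2-/- and 1171 CPM in control. The median depth was 6119 UMIs in NC-Foxc2-/- and 6988 UMIs in control TM-3 cells, and the median mitochondrial share 2.45% in NC-Foxc2-/- and 2.54% in control. In the paper's comparison of TM-1 cells, Xist was higher and Ddx3y lower in NC-Foxc2-/-, 2 transcripts that differ between the sexes. The part of these in the glycolytic difference was not tested, nor was that of the choice of mice with moderate ocular phenotypes.

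Over single cells the summed share of glycolytic enzymes varied widely in TM-3. Its quartiles were 0.20%, 0.37% and 0.64% in NC-Foxc2-/- cells and 0.51%, 0.93% and 1.29% in control cells. In keratocyte-like cells they were 0.37%, 0.50% and 0.63% in NC-Foxc2-/- and 0.38%, 0.53% and 0.68% in control cells. The upper quartile of NC-Foxc2-/- TM-3 cells lay below the median of control TM-3 cells. After each cell was thinned to 1000 UMIs, which kept 1127 NC-Foxc2-/- and 842 control TM-3 cells, the medians were 0.4% in NC-Foxc2-/- and 0.9% in control. Corneal endothelial-like cells of the control library had the highest median, 1.26%. In erythrocyte-like cells, which carry mainly haemoglobin transcripts, the enzymes were 0.00834% of UMIs in NC-Foxc2-/- and 0.00719% in control.

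**Figure D4:**
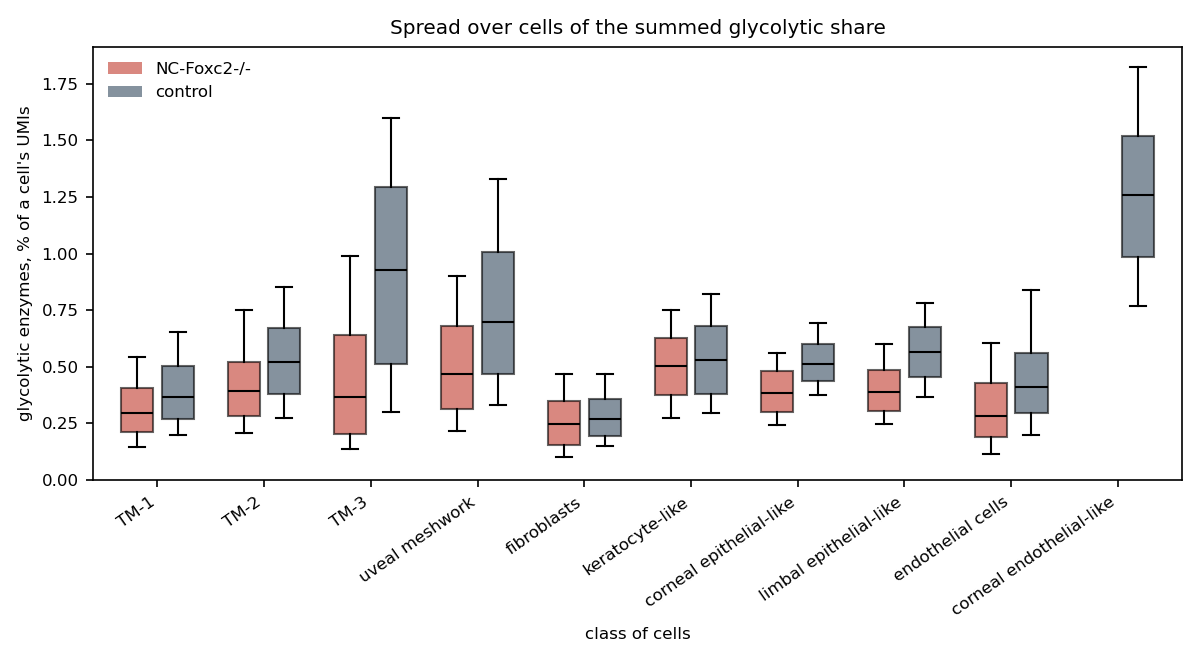
Share of a cell's UMIs from 17 glycolytic enzymes (vertical axis, percent, linear from 0) in 10 classes, NC-Foxc2-/- in red to the left of control in blue-grey. Boxes give the quartiles over cells, the line in a box the median and the whiskers the 10th and 90th percentiles; the corneal endothelial-like class is drawn for control only. The TM-3 boxes stand furthest apart, with medians of 0.37% in NC-Foxc2-/- and 0.93% in control.

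The share of TM-3 cells with a Slc2a1 UMI was 54.6% in NC-Foxc2-/- and 82.0% in control as counted, and 25.7% in NC-Foxc2-/- and 54.9% in control after thinning. In erythrocyte-like cells after thinning it was 0.68% in NC-Foxc2-/- and 0.45% in control. Slc16a3 was found after thinning in 5.41% of NC-Foxc2-/- and 16.6% of control TM-3 cells, and Cited2 in 15.1% of NC-Foxc2-/- and 35.2% of control TM-3 cells. As counted, Slc16a3 was found in 25.0% of NC-Foxc2-/- and 58.2% of control TM-3 cells, and Cited2 in 42.0% of NC-Foxc2-/- and 66.8% of control TM-3 cells. Hk2 was found after thinning in 49.1% of NC-Foxc2-/- and 28.0% of control keratocyte-like cells, against 1.02% of NC-Foxc2-/- and 0.34% of control erythrocyte-like cells.

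RefSeq promoter windows on GRCm38.p6 (250 bases before to 50 bases after a start site) were available for 33 of the 36 genes and were searched for ACGTG and GCGTG, the core letters of the hypoxia response element, on both strands. 30 of the 33 genes held at least 1 match in some window, where 46.7% of the 27025 genes with a window did; over single windows the shares were 82.6% of 46 windows of these genes and 43.8% of all 32851 windows. Of the 11 genes past the rule in TM-3, 9 held a match, and of 21 others measured in TM-3 with a window, 20 did. The promoters of the 5 genes with the lowest TM-3 ratios and of Hk2 are shown because these genes carry the main differences, with the matches in capitals (CACGT and CACGC are the same letters read on the other strand). Eno1 has 3 windows, of which 1 is shown. In Cited2 the letters CACGTG hold a match on each strand.
Slc16a3 promoter, chr11:120948817-120949116, plus strand: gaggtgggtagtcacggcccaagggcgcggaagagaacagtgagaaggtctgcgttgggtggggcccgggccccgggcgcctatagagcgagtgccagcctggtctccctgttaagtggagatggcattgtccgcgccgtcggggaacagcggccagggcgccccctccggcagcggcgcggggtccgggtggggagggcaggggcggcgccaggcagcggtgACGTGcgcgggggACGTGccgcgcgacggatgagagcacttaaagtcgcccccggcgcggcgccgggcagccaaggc
Cited2 promoter, chr10:17722978-17723277, plus strand: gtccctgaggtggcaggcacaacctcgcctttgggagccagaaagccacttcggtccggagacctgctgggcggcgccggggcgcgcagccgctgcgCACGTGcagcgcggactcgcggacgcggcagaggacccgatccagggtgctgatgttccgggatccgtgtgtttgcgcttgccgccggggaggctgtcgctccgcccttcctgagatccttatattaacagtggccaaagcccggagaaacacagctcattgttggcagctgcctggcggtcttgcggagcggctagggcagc
Gapdh promoter, chr6:125165724-125166023, minus strand: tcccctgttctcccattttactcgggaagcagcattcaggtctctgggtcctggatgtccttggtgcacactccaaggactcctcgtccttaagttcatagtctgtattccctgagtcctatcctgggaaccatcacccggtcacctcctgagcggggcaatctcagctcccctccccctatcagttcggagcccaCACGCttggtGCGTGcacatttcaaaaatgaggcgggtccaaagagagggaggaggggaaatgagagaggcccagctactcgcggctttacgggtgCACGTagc
Slc2a1 promoter, chr4:119108495-119108794, plus strand: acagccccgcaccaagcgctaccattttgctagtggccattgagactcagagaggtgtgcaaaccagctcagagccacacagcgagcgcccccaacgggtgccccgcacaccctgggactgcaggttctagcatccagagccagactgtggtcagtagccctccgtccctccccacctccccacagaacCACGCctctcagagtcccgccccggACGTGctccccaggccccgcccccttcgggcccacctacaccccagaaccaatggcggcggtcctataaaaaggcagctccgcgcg
Eno1 promoter, chr4:150236458-150236757, plus strand: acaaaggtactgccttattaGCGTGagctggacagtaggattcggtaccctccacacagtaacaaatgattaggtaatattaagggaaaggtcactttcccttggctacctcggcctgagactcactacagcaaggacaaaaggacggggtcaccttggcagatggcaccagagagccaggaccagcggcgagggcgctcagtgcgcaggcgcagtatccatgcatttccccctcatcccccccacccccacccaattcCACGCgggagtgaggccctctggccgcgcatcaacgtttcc
Hk2 promoter, chr6:82774405-82774704, minus strand: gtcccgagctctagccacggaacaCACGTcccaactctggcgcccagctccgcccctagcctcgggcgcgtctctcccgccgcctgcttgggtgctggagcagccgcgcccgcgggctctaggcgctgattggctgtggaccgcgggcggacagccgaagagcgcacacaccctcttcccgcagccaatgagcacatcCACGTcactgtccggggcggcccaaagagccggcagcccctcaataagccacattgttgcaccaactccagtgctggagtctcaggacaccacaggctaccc
A match describes the letters in the window, and no binding was measured.

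Endothelial cells were made up differently in the libraries. Schlemm's canal and lymphatic endothelial cells were 23 of 253 NC-Foxc2-/- and 84 of 207 control endothelial cells, and blood endothelial cells were 208 NC-Foxc2-/- and 123 control cells. A further 22 cells belonged to a subcluster that the paper describes as specific to NC-Foxc2-/- mice. The ratios over all endothelial cells include them. Within blood endothelial cells Hk2 kept a ratio of 3.91 (2.43 to 6.56), Slc16a1 one of 3.18 (1.90 to 5.54) and Slc16a3 one of 0.32 (0.22 to 0.45). Egln3, which was past the rule over all endothelial cells at 0.45 (0.36 to 0.55), had 36.9 CPM in NC-Foxc2-/- and 44.3 CPM in control blood endothelial cells, a ratio of 0.83 (0.57 to 1.23). In Schlemm's canal and lymphatic cells it had 366 CPM in NC-Foxc2-/- and 359.98 CPM in control. These 23 NC-Foxc2-/- cells are under the minimum of 50 cells set for a class, and the values there are given for that reason with no call. Gapdh had a ratio of 0.55 (0.45 to 0.66), Pfkfb3 one of 1.80 (1.40 to 2.30), Hif1a one of 1.5 (1.24 to 1.81) and Pgk1 one of 1.49 (1.10 to 1.98). Egln1 had a ratio of 2.14 (1.45 to 3.11), on 43 UMIs in NC-Foxc2-/- and 91 UMIs in control cells.

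Other classes of the same libraries bear on how far these differences reach. In macrophage-like cells Gapdh had 645 CPM in NC-Foxc2-/- and 1251 CPM in control cells (ratio 0.52, 0.49 to 0.54) and Hk2 had 448 CPM in NC-Foxc2-/- and 183 CPM in control cells (ratio 2.44, 2.22 to 2.70). The Hk2 ratio was 2.81 (2.37 to 3.35) in pericyte-like cells and 2.12 (1.77 to 2.55) in the smooth muscle-like class. Slc2a1 had a ratio of 1.01 in macrophage-like cells (0.89 to 1.15) and 1.00 in pericyte-like cells (0.88 to 1.13). A lower Gapdh and a higher Hk2 were thus seen in macrophage-like cells too, which do not descend from the neural crest.

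Related pathways were read from lists of their known genes. Of 28 further HIF targets measured in TM-3, 4 were lower by the rule (2.29% of all genes) and 0 higher (3.64%), with a median log2 ratio of -0.49 against 0.06 over all genes. Adm, which encodes the vasodilator peptide adrenomedullin, had 231 CPM in NC-Foxc2-/- and 505 CPM in control TM-3 cells (ratio 0.46, 0.43 to 0.48), and Igfbp3 had 122 CPM in NC-Foxc2-/- and 75.7 CPM in control (ratio 1.62, 1.44 to 1.81). In keratocyte-like cells Vegfa, which encodes a growth factor for vessels, had 696 CPM in NC-Foxc2-/- and 367 CPM in control (ratio 1.90, 1.85 to 1.94). Angptl4 had a ratio of 0.43 (0.32 to 0.57) there, on 76 UMIs in NC-Foxc2-/- and 124 UMIs in control cells.

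For the metabolic lists below, the shares over all genes in TM-3 were again 2.29% lower and 3.64% higher, so a count of 0 is near the background and nothing is read from it. 0 of 20 genes of the tricarboxylic acid cycle and 0 of 45 nuclear genes of the respiratory chain were past the rule in TM-3 in either direction, with median log2 ratios of -0.18 and -0.02, against 0.06 over all genes. Uqcrc1 had a TM-3 ratio of 0.63 (0.54 to 0.73) and Ndufa1 one of 1.93 (1.78 to 2.10). Ndufa1 had 389 CPM in NC-Foxc2-/- and 209.9 CPM in control keratocyte-like cells, a ratio of 1.86 (1.80 to 1.91). Of 7 HIF pathway genes measured in TM-3 0 were past the rule, with a median log2 ratio of -0.03. Arnt, the constant partner of the HIF alpha subunits, had 26.0 CPM in NC-Foxc2-/- and 16.8 CPM in control TM-3 cells (ratio 1.55, 1.22 to 1.99). Egln2, of the same list, had a ratio of 0.74 (0.63 to 0.88). Of 6 pentose phosphate genes 0 were past the rule, with a median log2 ratio of -0.01. Tkt, transketolase, was at 79.5 CPM in NC-Foxc2-/- and 151 CPM in control TM-3 cells (ratio 0.53, 0.47 to 0.58), and Rpia had a ratio of 1.91 (1.38 to 2.69). Of 7 genes of hexosamine, glycogen and gluconeogenesis 0 were past the rule, with a median log2 ratio of 0.17. Gfpt2, of the hexosamine branch that draws on glycolysis, had 147.5 CPM in NC-Foxc2-/- and 74.3 CPM in control TM-3 cells (ratio 1.99, 1.78 to 2.22). Pygm, at the other end of that list, had a ratio of 0.75 (0.51 to 1.11).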

How the data were processed

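The authors counted UMIs per gene and barcode with Cell Ranger 4.0.0, and the deposited matrices hold these raw counts on mm10 gene names. Cells above 8% mitochondrial UMIs were dropped. Meshwork, fibroblast and endothelial names came from the study's listed cells, joined to barcodes by their normalized values within 0.55 of the last digit with a single match. Other classes were rebuilt with scanpy 1.11.5 (15 components, 25 neighbors, Leiden resolution 0.8) and named from markers, by a rule revised after the clusters were seen. Scrublet called 4.68% of NC-Foxc2-/- and 3.92% of control cells doublets, which were kept. The 36 genes and all lists were chosen with earlier results of these data known.

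UMIs were summed per class and library and given as CPM, with exact Poisson intervals, and exact conditional binomial (Clopper-Pearson) intervals for ratios. With 1 library per genotype no test was made, and mice within a pool could not be told apart. Intervals cover counting error only. All 36 genes were named, and of each further list the genes with the 2 lowest and 2 highest ratios, given 100 or more UMIs, in TM-3 and in keratocyte-like cells; the genes given from them were picked from that set, and some results are not reported here. The rule of size, tested on simulated data, recovered 93.5% of genes changed 3-fold among 10225 in TM-3 and 96.0% among 12245 in keratocyte-like cells. These shares cover changes well past the rule, and say nothing of genes near its threshold or of false calls. Alternatives varied class names, join, clustering, doublets, depth, weighting, denominator, scaling, mitochondrial limit and the UMI minimum.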

Additional observations from a re-analysis of the deposited data

Results flagged for a closer look

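For 10 of the 34 genes with 50 or more UMIs in both classes (29.4%) the counting interval of the NC-Foxc2-/- over control ratio lay below 1 in TM-3 and above 1 in keratocyte-like cells, as it did for 296 of all 9919 such genes (2.98%). No member had the opposite pattern, against 277 of the 9919 genes (2.79%). The difference between the classes was not tested, since each genotype is 1 library. Slc2a1 had a ratio of 0.39 in TM-3 and 1.29 in keratocyte-like cells, and Bnip3 0.61 in TM-3 and 1.43 in keratocyte-like cells. Among the enzymes, Hk1 had 0.71 in TM-3 and 1.18 in keratocyte-like cells, Pfkp 0.58 in TM-3 and 1.37 in keratocyte-like cells, and Eno2 0.79 in TM-3 and 1.25 in keratocyte-like cells. The flux regulator Pfkfb3 had 0.89 in TM-3 and 1.5 in keratocyte-like cells, but within TM-3 it had 1.18 (1.10 to 1.26) in cluster 15 and 0.72 (0.50 to 1.05) in cluster 6. Hif1a had 0.92 in TM-3 and 1.34 in keratocyte-like cells, but within TM-3 it had 1.19 (1.14 to 1.23) in cluster 15 and 1.16 (0.95 to 1.42) in cluster 6. Egln1 had 0.71 in TM-3 and 1.2 in keratocyte-like cells, with 0.82 (0.75 to 0.90) in cluster 15 and 1.10 (0.80 to 1.53) in cluster 6. Ankrd37 had 0.64 in TM-3 and 1.18 in keratocyte-like cells, and Ddit4 0.60 in TM-3 and 1.09 in keratocyte-like cells. In cluster 15 the ratio was 0.52 for Slc2a1, 0.75 for Pfkp, 0.80 for Bnip3, 0.90 for Hk1, 0.67 for Ankrd37, 0.71 for Ddit4 and 0.99 (0.84 to 1.17) for Eno2. In cluster 6 it was 0.70 for Slc2a1, and the intervals held 1 for Pfkp (0.87), Eno2 (0.86), Hk1 (1.18), Bnip3 (2.08), Ankrd37 (1.38) and Ddit4 (1.57), of which the last 4 were above 1.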

How the results depend on the processing

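No paired analysis was possible because each genotype is 1 library. No ratio past the rule changed its side of 1 under the alternatives run. In TM-3 the number of lower genes, 11 as reported, was 15 with cells thinned to 1000 UMIs, 14 with the mean of per-cell CPM and with scaling by the median gene, 13 with the stricter join, 12 without a minimum of UMIs, 10 without doublets and with at most 5% mitochondrial UMIs, and 9 with rebuilt clusters and without mitochondrial, haemoglobin and ribosomal genes. It was 5 in cells of cluster 15 alone and 1 in cells of cluster 6 alone, and 9 in cells without a corneal endothelial marker UMI, and 0 genes were higher under each of these settings; these settings, blood endothelial cells alone and leaving out dissociation genes were chosen after seeing the data. The shares over all genes under these alternatives are not given here, so the counts under them are not set against a background. Elsewhere the counts moved by 1 or 2 genes. With cells thinned to 1000 UMIs, lower genes numbered 1 in TM-1, 0 in TM-2, 1 in the uveal meshwork, 2 in fibroblasts, 1 in keratocyte-like and 1 in limbal epithelial-like cells, and higher genes 1 in TM-1, 1 in fibroblasts, 1 in corneal epithelial-like and 0 in endothelial cells. With the mean of per-cell CPM, 1 gene was higher in TM-1, 0 were lower in TM-2 and 2 lower in fibroblasts. Without a minimum of UMIs, 2 were lower and 2 higher in TM-2, 1 higher in the uveal meshwork, 3 lower in fibroblasts and 4 lower in endothelial cells. In the uveal meshwork 1 gene was lower with the stricter join, with scaling by the median gene and with at most 5% mitochondrial UMIs; in fibroblasts 1 was higher under the last 2 of these and without mitochondrial, haemoglobin and ribosomal genes. Rebuilt clusters gave 1 lower in TM-1 and 0 in endothelial cells, and blood endothelial cells alone gave 1 lower. In corneal epithelial-like cells 1 was higher at resolution 1.2 and with the 36 genes left out of clustering, which gave 1 lower in limbal epithelial-like cells. Resolution 0.4 gave no value for the corneal and limbal epithelial-like classes, whose merged cluster stayed unnamed. The cause of these moves was not tested. Low counts limit TM-2 and endothelial cells most.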
